A study of Homo sapiens with 6 samples.

Results

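Interleukin 6 (IL-6) signalling was followed through 10 genes, chosen by name out of the 20061 rows of the deposited gene table: the ligands IL6, IL11 and LIF, the receptor chains IL6R, LIFR, OSMR and IL6ST, the kinase JAK1, the transcription factor STAT3 and the inhibitor SOCS3. All 10 were found, each as 1 row. They were chosen with the group values of these data in view, so the values of the 10 genes below are a description and not a test. Polyadenylated RNA of HEYA8, an established human ovarian cancer cell line labelled as low grade serous, was sequenced from 3 samples of cells with a hairpin against ETS1 (shETS1) and 3 samples with a hairpin against luciferase (shLuciferase), the negative control. In both groups the hairpin was expressed stably from a lentiviral construct and the cells were kept in puromycin without further treatment. The labels do not say which ETS1 hairpin was used, whether cells were cloned, or whether replicates came from separate cultures. If they did not, the authors' p-values measure technical spread only. The authors' table gives 1 FPKM value (fragments scaled to transcript length and library size) per gene and group, so no spread between samples could be computed, and sequencing depth is unknown.

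Cytokines of the IL-6 family bind a receptor chain of their own and then recruit gp130, the shared signalling chain encoded by IL6ST. Kinases of the JAK family bound to gp130 phosphorylate STAT3, which pairs up, enters the nucleus and switches on genes that include SOCS3. The SOCS3 protein binds gp130 and JAK and dampens the signal. IL-6 is known to be abundant in the ascites of ovarian cancer, and a cell without its own IL-6 receptor can respond through a soluble form shed by other cells. In RNA from a whole culture, fewer cells with a transcript and less RNA per cell cannot be told apart.

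Promoter sequences were matched for 9 of the 10 genes, with 14 start sites, in RefSeq's table on GRCh38.p14. The stretches shown are the 250 bases before the start, for the gene whose level the authors called changed (IL6R), for the ligand that names the pathway (IL6) and for the inhibitor (SOCS3, at the first of its start sites in that table). Capitals mark GGAA, the core bound by ETS factors, in IL6R, the NF-kappaB consensus and the C/EBP motif TTGNNCAA in IL6, and the longer ETS motif CCGGAA in SOCS3, each on either strand.
IL6R, chr1:154405093-154405342, plus strand: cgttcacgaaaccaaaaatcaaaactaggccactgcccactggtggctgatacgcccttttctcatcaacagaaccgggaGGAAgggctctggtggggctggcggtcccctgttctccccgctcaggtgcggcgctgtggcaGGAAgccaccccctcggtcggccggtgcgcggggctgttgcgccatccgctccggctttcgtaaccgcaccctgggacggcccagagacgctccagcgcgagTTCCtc
IL6, chr7:22726950-22727199, plus strand: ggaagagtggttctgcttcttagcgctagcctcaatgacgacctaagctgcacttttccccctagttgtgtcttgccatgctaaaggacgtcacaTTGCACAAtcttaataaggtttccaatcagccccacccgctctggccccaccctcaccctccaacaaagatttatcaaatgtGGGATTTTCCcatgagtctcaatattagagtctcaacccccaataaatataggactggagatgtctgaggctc
SOCS3, chr17:78360926-78361175, minus strand: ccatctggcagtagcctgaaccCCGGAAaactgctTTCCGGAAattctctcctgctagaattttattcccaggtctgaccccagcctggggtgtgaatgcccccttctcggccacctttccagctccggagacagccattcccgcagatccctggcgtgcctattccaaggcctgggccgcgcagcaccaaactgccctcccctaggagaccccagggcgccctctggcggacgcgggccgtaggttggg

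The IL6R stretch held 3 matches of GGAA, the median over all 35116 promoters of that table, 92.7% of which held at least 1. It held no match of the longer CCGGAA, which 14.5% of promoters held. The SOCS3 stretch shown held 3 matches of CCGGAA, with the matches on opposite strands of TTCCGGAA overlapping. The stretch at the other SOCS3 start site held none. Single CCGGAA matches stood in the IL6ST and STAT3 stretches, and at 2 of the 3 JAK1 start sites. The IL6 stretch held 1 NF-kappaB match, which begins at position -73 relative to the start, and 1 C/EBP match, which begins at -155. The NF-kappaB consensus also stood in the IL6ST stretch, and the C/EBP motif at 1 of the 3 JAK1 start sites. Over all promoters 9.96% held the NF-kappaB consensus and 4.90% the C/EBP motif. The STAT motif TTCNNNGAA, found in 6.57% of promoters, stood at 2 of the 3 LIFR start sites and in none of the other stretches searched. A match is a run of letters and not evidence of binding, and binding was not measured here.

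The hairpin's target was lower in the labelled group, with ETS1 at 17.9 FPKM in shETS1 and 41.4 FPKM in shLuciferase. Levels of the carcinoma lineage marker PAX8 were 76.8 FPKM in shETS1 and 79.7 FPKM in shLuciferase, KRT18, whose deposited locus is shared with KRT8, was the highest of the 8 carcinoma markers at 1498 FPKM in shETS1 and 2044 FPKM in shLuciferase, and MUC16 was listed at 0 in shETS1 and at 0.000625 FPKM in shLuciferase. Of 7 leukocyte markers, PTPRC, TYROBP, CD3E and MS4A1 were listed at 0 in both groups. The summed leukocyte level was 48.4 FPKM in shETS1 and 49.9 FPKM in shLuciferase, nearly all of it CD68. The 6 fibroblast markers summed to 6.39 FPKM in shETS1 and 4.64 FPKM in shLuciferase, with COL3A1 and DCN at 0 in both groups and FAP the highest. No marker of these 3 lists was called.

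Of the 9 tested members, 1 was called, at the 0.05 threshold on q-values of the authors' deposited table. That member is IL6R, and it was lower in shETS1. Over all 11952 tested genes, 0.812% were called in either direction, 0.268% lower and 0.544% higher. LIFR was not tested by the authors. The 8 tested members that averaged 1 FPKM or more had a median log2 ratio (shETS1 over shLuciferase) of 0.08, against 0.02 over the 10676 tested genes at that level. Of these 8 members, 5 had a ratio above 0 and 3 below, compared with 5612 above and 5064 below among all tested genes at that level.

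**Figure D1:**
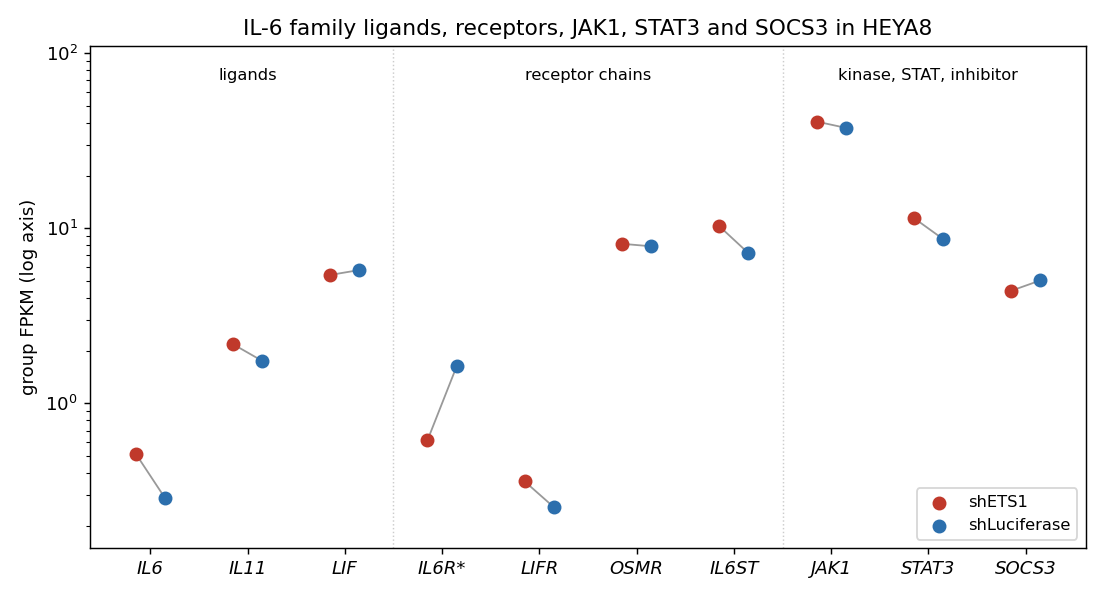
Group FPKM (vertical log axis) of the 10 genes, ordered by role, with 1 point per group: red for shETS1, blue to its right for shLuciferase. The asterisk marks IL6R, the gene called at a q-value of 0.05, at 0.616 FPKM in shETS1 and 1.63 FPKM in shLuciferase. The other 9 pairs lie closer together on the log axis. There are no error bars because the table gives 1 value per group.

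The ligands were low to moderate in both groups and none was called. IL6, the founding cytokine of the family (chromosome 7, 22766766 to 22771621, hg19), was at 0.517 FPKM in shETS1 and 0.289 FPKM in shLuciferase. These are the lowest levels among the tested members, and 38.9% of all rows were lower in shLuciferase. The log2 ratio of IL6 was 0.84, and the authors' deposited table lists a p-value of 0.0629 and a q-value of 0.788 for it. Because the level is low, that ratio became 0.23 once 1 FPKM was added to both values.

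IL11, a gp130 cytokine first known for its action on blood cell precursors, was at 2.18 FPKM in shETS1 and 1.75 FPKM in shLuciferase. The authors' deposited table lists a q-value of 1.00 for IL11. LIF, which keeps mouse embryonic stem cells undifferentiated through STAT3, was the most abundant of the 3 ligands at 5.41 FPKM in shETS1 and 5.78 FPKM in shLuciferase. The log2 ratio of LIF was -0.09, and its sign turned with the correction for base composition described below.

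Among the receptor chains, IL6R fell. IL6R encodes the chain that binds IL-6 itself, and its row covers chromosome 1, 154377669 to 154441926 (hg19). It stood at 0.616 FPKM in shETS1 and 1.63 FPKM in shLuciferase, a level 2.64-fold lower in shETS1. The log2 ratio was -1.40, and 0.435% of tested genes had a larger ratio in either direction. In the authors' deposited table the p-value of IL6R is 5e-05, the smallest listed and shared by 62 tested genes, beside a q-value of 0.00964. By fold change IL6R was seventh among the 31 genes called lower with a value above 0 in both groups.

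The fall of IL6R took place at a low level. With 1 FPKM added to both values the log2 ratio of IL6R was -0.70, and with 0.1 FPKM added it was -1.27. Of all 97 called genes, 13 had a lower mean level than IL6R, and 7 of these were lower in shETS1. The deposited row of IL6R overlaps no other row of the table. Its nearest tested neighbours on either side that averaged 1 FPKM or more were ATP8B2, HAX1, UBE2Q1 and ADAR, 53.9 to 129 kb away. None of these 4 was called, against 0.812% of all tested genes, and their log2 ratios ranged from -0.31 to 0.06.

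The other receptor chains of the 10 genes were not called. IL6ST, which encodes gp130 (chromosome 5, 55230925 to 55290821, hg19), was at 10.3 FPKM in shETS1 and 7.20 FPKM in shLuciferase. Its log2 ratio was 0.51, for which the authors' deposited table lists a p-value of 0.0543 and a q-value of 0.749. The level of IL6ST was 16.7 times that of IL6R in shETS1 and 4.42 times that of IL6R in shLuciferase.

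OSMR, the chain that pairs with gp130 for oncostatin M, was at 8.16 FPKM in shETS1 and 7.89 FPKM in shLuciferase, and the authors' deposited table lists a q-value of 1.00 for it. LIFR, which pairs with gp130 for LIF, was at 0.358 FPKM in shETS1 and 0.255 FPKM in shLuciferase. LIFR was thus the lowest of the 10 genes in both groups, beside a ligand that was above 5 FPKM.

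**Figure D2:**
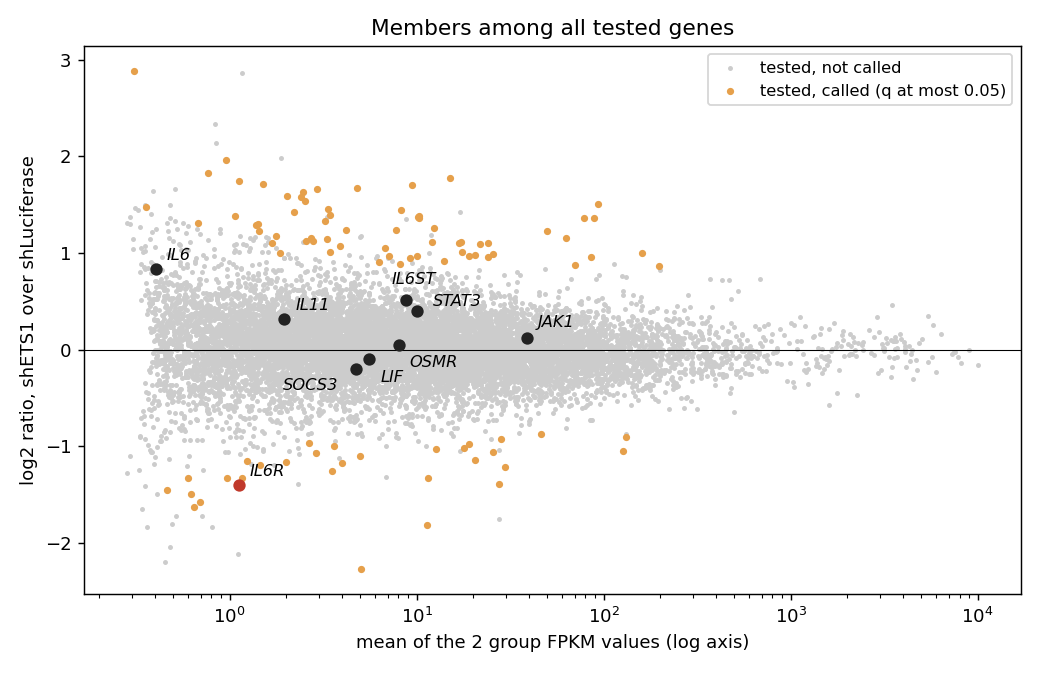
Log2 ratio of shETS1 over shLuciferase (vertical axis) against the mean of the 2 group FPKM values (horizontal log axis) for the tested genes. Grey points were not called, orange points were called, black points are the members that were not called and the red point is IL6R at -1.40. The 8 other tested members lie within the grey band, and the 4 genes without a finite ratio or beyond the axis are not drawn. Of these 4, 1 was called.

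Inside the cell, JAK1 was the most abundant member. This kinase, which gp130 relies on for STAT3 phosphorylation, was at 40.7 FPKM in shETS1 and 37.5 FPKM in shLuciferase, and it was not called. JAK1 made up 48.4% of the summed FPKM of the 10 genes in shETS1 and 49.3% in shLuciferase. The deposited locus of JAK1 is shared with RAVER2, a gene at 3.26 FPKM in shETS1 and 2.78 FPKM in shLuciferase, so a part of the JAK1 reads could be uncertain. Whether the transcripts of JAK1 and RAVER2 overlap was not examined. LIF and STAT3 each overlap 1 untested row at low level.

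STAT3, the transcription factor of the pathway (chromosome 17, 40465343 to 40540513, hg19), was second, at 11.5 FPKM in shETS1 and 8.69 FPKM in shLuciferase. Its log2 ratio was 0.40, and in the authors' deposited table it has a p-value of 0.0930 and a q-value of 0.872. STAT5A and STAT5B lie next to STAT3 on chromosome 17, 1.38 and 36.9 kb away, and had log2 ratios of -0.39 and -0.21 without a call. SOCS3, the feedback inhibitor that STAT3 induces (chromosome 17, 76352859 to 76356158, hg19), was at 4.40 FPKM in shETS1 and 5.04 FPKM in shLuciferase. The log2 ratio of SOCS3 was -0.20, and the authors' deposited table lists a q-value of 1.00 for it. RNA levels do not show phosphorylation, so STAT3 activity was not measured here.

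From high to low, the levels in shETS1 ran JAK1, STAT3, IL6ST, OSMR, LIF, SOCS3, IL11, IL6R, IL6 and LIFR. In shLuciferase OSMR and IL6ST changed places, at 7.89 and 7.20 FPKM in shLuciferase, and the rest of the order was the same. Whether neighbours in this order differ could not be tested with 1 value per group. For the same reason no gene is named as most like a member in pattern.

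The size of change that the authors' test called depended on the level. Among tested genes with a mean under 1 FPKM, the bin of IL6, the smallest called change was 2.49-fold. From 1 to 5 FPKM, the bin of IL6R, IL11 and SOCS3, it was 1.96-fold. From 5 to 20 FPKM, the bin of IL6ST, LIF, OSMR and STAT3, it was 1.85-fold, and from 20 to 100 FPKM, the bin of JAK1, it was 1.83-fold. The 1.79-fold ratio of IL6, the 1.43-fold ratio of IL6ST and the 1.32-fold ratio of STAT3 lay below the smallest called change of their bins. No gene of those bins was called at a difference of that size, which does not show that such differences are absent.

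Base composition moved with the ratios. Across 10408 tested genes that averaged 1 FPKM or more and had a known transcript, Spearman's rho between the log2 ratio and the GC content of the transcript was -0.47. These points are genes measured in the same libraries, not replicates. IL6ST and LIFR, with the lowest transcript GC contents of the 10 genes at 36.6% and 36.2%, had log2 ratios of 0.51 and 0.49, which became 0.27 and 0.23 with the trend removed. SOCS3, with the highest at 60.0%, went to -0.06. IL6R, at 51.8% GC against a median of 49.9%, kept a log2 ratio of -1.36. LIF moved to 0.02 and OSMR to -0.01, which turned their signs.

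**Figure D3:**
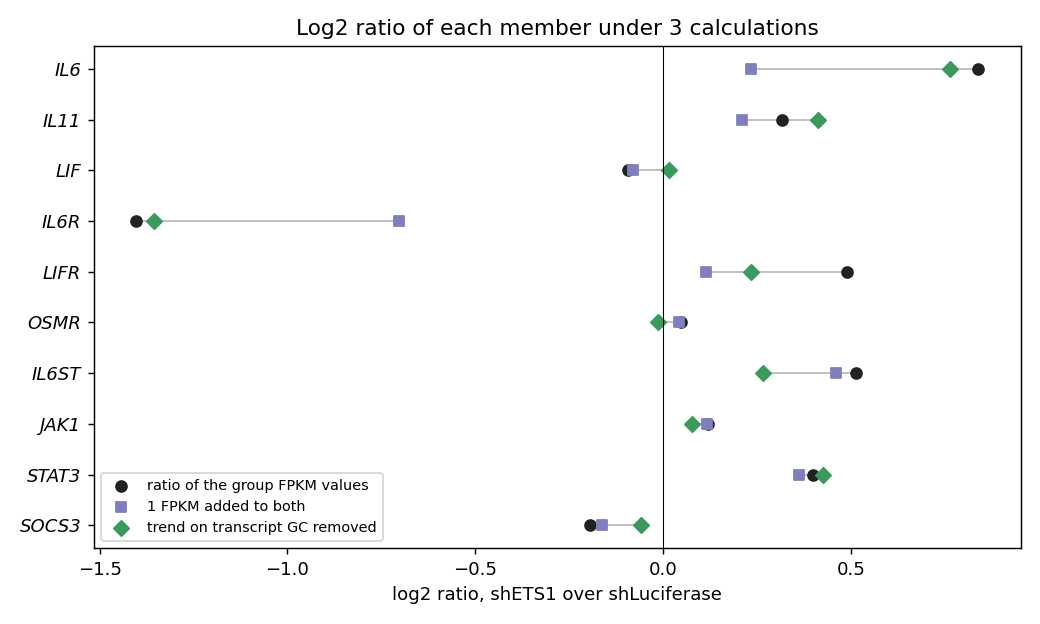
Log2 ratio of shETS1 over shLuciferase (horizontal axis) of each of the 10 genes under 3 calculations: the ratio of the group FPKM values (black circles), the ratio with 1 FPKM added to both values (violet squares) and the ratio with the trend on transcript GC content removed (green diamonds). IL6R is the lowest under all 3, at -1.40, -0.70 and -1.36, and the genes near 0 include LIF and OSMR, whose signs turn with the GC trend removed.

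The rest of the pathway was described by 10 further lists that together hold 105 genes, of which 81 were tested. Of these 81, 1 was called, ICAM1, and it was higher in shETS1. That is 1.23% of the tested list genes, against 0.812% of all tested genes. At an unadjusted p-value of 0.05 in the authors' deposited table there were 11 genes, or 13.6%, with 8 higher and 3 lower. Of all tested genes 6.94% passed that threshold, 3.90% higher and 3.04% lower. The lists were chosen with earlier results of these data known, so these percentages are a description and not a test. The deposited loci of STAT6, TIMP1 and ZFP36L1 are each shared with another tested gene, so a part of their reads could be uncertain. Whether the transcripts overlap was not examined. The 80 tested list genes that averaged 1 FPKM or more had a median log2 ratio of 0.01.

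Of 8 further ligands and ligand partners, 3 were tested and none was called. EBI3, a soluble chain that pairs with other subunits to form cytokines of this family, was at 1.77 FPKM in shETS1 and 0.793 FPKM in shLuciferase, and the authors' deposited table lists a q-value of 0.175 for it. CTF1, which encodes cardiotrophin 1, a ligand of the LIF receptor with gp130, was at 2.59 FPKM in shETS1 and 1.34 FPKM in shLuciferase. For CTF1 the authors' deposited table lists a q-value of 0.202. The p-values listed in the authors' deposited table are 0.00330 for EBI3 and 0.00430 for CTF1. CLCF1, a ligand of the ciliary neurotrophic factor receptor, was the most abundant of all family ligands at 12.4 FPKM in shETS1 and 11.9 FPKM in shLuciferase. OSM, the ligand of OSMR, was listed at 0.00543 FPKM in shETS1 and 0 in shLuciferase, and IL27 and IL31 at 0 in both.

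Of 4 further receptor chains, 3 were tested and none was called, also at an unadjusted p-value of 0.05. IL27RA was at 9.61 FPKM in shETS1 and 9.39 FPKM in shLuciferase, IL11RA, which binds IL-11, was at 2.68 FPKM in shETS1 and 2.72 FPKM in shLuciferase, and IL31RA, the neighbour of IL6ST on chromosome 5, was at 2.11 FPKM in shETS1 and 2.05 FPKM in shLuciferase. All 4 genes of receptor shedding were tested and none had a p-value of 0.05 or less in the authors' deposited table. ADAM17, the protease that releases IL6R from the cell surface on stimulation, was at 6.12 FPKM in shETS1 and 5.36 FPKM in shLuciferase. ADAM10, which also cleaves IL6R, was at 5.71 FPKM in shETS1 and 5.04 FPKM in shLuciferase. RHBDF2, one of the partner proteins that ADAM17 needs to mature, was at 11.5 FPKM in shETS1 and 12.1 FPKM in shLuciferase, and RHBDF1 at 9.35 FPKM in shETS1 and 10.5 FPKM in shLuciferase.

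Of the other JAK and STAT genes, 7 of 9 were tested and none had a p-value of 0.05 or less in the authors' deposited table. Their median log2 ratio was -0.25 over the 6 that averaged 1 FPKM or more, against 0.02 over all tested genes at that level. With the GC trend removed the median of the 6 was -0.15. STAT6, the factor of interleukin 4 signalling, was the most abundant at 42.5 FPKM in shETS1 and 61.5 FPKM in shLuciferase, and the authors' deposited table lists a q-value of 0.836 for it. TYK2, another kinase that binds gp130, was at 23.7 FPKM in shETS1 and 28.8 FPKM in shLuciferase. Of 15 inhibitors of the pathway, 12 were tested and again none had a p-value of 0.05 or less in that table. PTPN1 and PTPN2, phosphatases that act on JAKs, were at 33.7 and 16.2 FPKM in shETS1 and at 24.9 and 14.0 FPKM in shLuciferase. PIAS4, of a family that restrains STATs, was at 14.0 FPKM in shETS1 and 15.2 FPKM in shLuciferase.

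The branch from gp130 through the phosphatase SHP2 (PTPN11) to ERK and PI3K had 15 tested genes of 16, and none was called. GAB2, an adaptor of that branch, was at 3.66 FPKM in shETS1 and 5.85 FPKM in shLuciferase, for which the authors' deposited table lists a p-value of 0.00675 and a q-value of 0.266. The most abundant were MAP2K2 at 225 FPKM in shETS1 and 223 FPKM in shLuciferase, HRAS at 181 FPKM in shETS1 and 214 FPKM in shLuciferase, and AKT1 at 87.9 FPKM in shETS1 and 108 FPKM in shLuciferase.

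Of 23 genes known to respond to STAT3, 21 were tested and 1 was called, which is 4.76% against 0.812% of all tested genes. At a p-value of 0.05 or less in the authors' deposited table the share was 28.6%, against 6.94% of all tested genes. These shares are a description, because the list was chosen with earlier results of these data known. ICAM1, a leukocyte adhesion receptor that NF-kappaB also induces, rose to 3.61 FPKM in shETS1, against 1.21 FPKM in shLuciferase, and the authors' deposited table lists a q-value of 0.00964 for it. A further 5 had a p-value of 0.05 or less in that table without a call. Of these, BCL3, a modulator of NF-kappaB, was at 5.11 FPKM in shETS1 and 3.30 FPKM in shLuciferase. MCL1, which blocks apoptosis, was at 98.2 FPKM in shETS1 and 67.6 FPKM in shLuciferase, and JUNB, an AP-1 subunit, was at 21.0 FPKM in shETS1 and 13.8 FPKM in shLuciferase. BCL2L1, which encodes the apoptosis inhibitor BCL-XL, stood the other way, at 112 FPKM in shETS1 and 167 FPKM in shLuciferase, as did CEBPD, a transcription factor of the acute-phase response, at 6.42 FPKM in shETS1 and 10.4 FPKM in shLuciferase. The most abundant were CCND1, a cyclin of the G1 phase, at 199 FPKM in shETS1 and 198 FPKM in shLuciferase, MYC at 183 FPKM in shETS1 and 185 FPKM in shLuciferase, and TIMP1, an inhibitor of metalloproteinases, at 183 FPKM in shETS1 and 148 FPKM in shLuciferase. The median log2 ratio of the 21 genes was 0.06.

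Acute-phase genes, which IL-6 induces in the liver, were nearly silent here. Of 11 such genes 1 was tested, SAA1, which encodes serum amyloid A. SAA1 was at 3.02 FPKM in shETS1 and 0.765 FPKM in shLuciferase, with a log2 ratio of 1.98. The authors' deposited table lists a q-value of 0.0670 for SAA1, just short of a call. Its near-identical copy SAA2 was at 0.178 FPKM in shETS1 and 0.141 FPKM in shLuciferase, and how reads were shared between the copies is not given in the sources used here. CRP, FGA, FGG and HAMP were listed at 0 in both groups. SERPINA3, LBP, HP, FGB and A2M each lay between 0.00857 and 0.0432 FPKM in both groups.

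**Figure D4:**
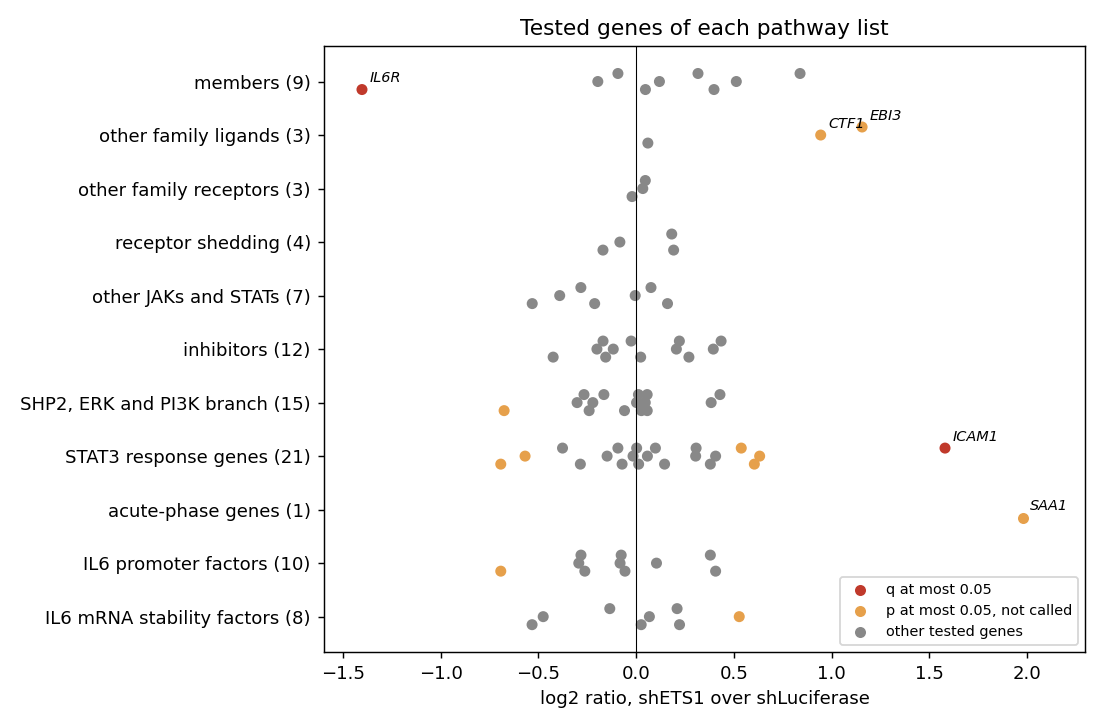
Log2 ratio of shETS1 over shLuciferase (horizontal axis) of every tested gene of the members and of the 10 further lists, 1 line per list with the number of tested genes in parentheses, and points spread vertically for legibility. Red points are called at a q-value of 0.05 (IL6R at -1.40 and ICAM1 at 1.58), orange points have a p-value of at most 0.05 without a call, and grey points are the other tested genes.

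Factors known to act on the IL6 gene and its mRNA were examined last. All 10 listed factors of the IL6 promoter were tested and none was called. FOSL1, an AP-1 subunit, was the most abundant at 756 FPKM in shETS1 and 703 FPKM in shLuciferase, followed by JUN at 127 FPKM in shETS1 and 152 FPKM in shLuciferase. RELA, the main activating NF-kappaB subunit, was at 52.4 FPKM in shETS1 and 64.2 FPKM in shLuciferase, and CEBPB, the factor first named NF-IL6, was at 50.4 FPKM in shETS1 and 38.0 FPKM in shLuciferase. For CEBPD the authors' deposited table lists a p-value of 0.0141 and a q-value of 0.414.

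All 8 listed regulators of IL6 mRNA stability were tested and none was called. ZFP36L2, of a family that promotes decay of AU-rich mRNAs, was at 8.59 FPKM in shETS1 and 5.96 FPKM in shLuciferase, and p and q were 0.0364 and 0.644 in the authors' deposited table. ZFP36, the best-known member of that family, was at 4.09 FPKM in shETS1 and 5.92 FPKM in shLuciferase. ZC3H12A, the nuclease that cuts IL6 mRNA, was at 7.82 FPKM in shETS1 and 7.46 FPKM in shLuciferase. HNRNPD was the most abundant at 215 FPKM in shETS1 and 184 FPKM in shLuciferase, followed by ZFP36L1 at 78.6 FPKM in shETS1 and 86.2 FPKM in shLuciferase, and ELAVL1, which binds AU-rich elements, was at 20.5 FPKM in shETS1 and 17.7 FPKM in shLuciferase.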

How the data were processed

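HEYA8 RNA came from 3 samples per group. The submitters' processing notes list Cufflinks 2.1.1, TopHat2 2.0.7, SAMtools 0.1.18, Bowtie2 2.0.6 and the build hg19, without stated roles. Per the labels' protocols, cDNA was primed with random hexamers and no strand-marking step is described. Annotation and scaling between libraries are not given in the labels or headers used here. Per gene, the deposited table has an FPKM value for each group as a whole, which the authors made from its samples, and a p-value and q-value of their comparison. Its test statistic, a deposited score, was not used. The count and limma tests meant for values per sample therefore did not apply.

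From the deposited FPKM values the log2 ratio of shETS1 over shLuciferase was computed, which differed from the deposited one by at most 5.71e-06 for the 10 genes. Genes were called where the deposited q-value was 0.05 or less. Medians used tested genes with a mean of at least 1 FPKM. The members and lists were chosen with earlier results of these data known. All members, ETS1 and, on each pathway list, the called genes, those with a p-value of at most 0.05 and the 3 most abundant are named, and on marker lists the highest gene and those at 0. A further gene that this rule names is not reported here. Other list genes were named for their roles after their values were seen. GC content came from GENCODE 29 (GRCh38), from the transcript with the longest coding sequence, matched by symbol for 97.5% of expressed genes. A cubic trend was removed, a step checked on simulated data. Starts on hg19 have 1 added to count from 1. Python 3.11.15, pandas 2.3.3 and numpy 2.4.6 were used. Call thresholds, pseudocounts, level minimums and scaling were varied.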

Additional observations from a re-analysis of the deposited data

How the results depend on the processing

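IL6R was called alone among the members under every threshold tried: a q-value of 0.01, a q-value of 0.1, an unadjusted p-value of 0.05 and adjustment over the 10676 tested genes with a mean of at least 1 FPKM. The looser thresholds could add members. None of these settings was a test of IL6R, whose p-value is the smallest listed. That p-value is shared by 62 tested genes, as many as were called at a q-value of 0.01. A gene with the smallest p-value also ranks first in the adjustment over the 10676 genes. Over all tested genes the calls numbered 62 at a q-value of 0.01, 150 at 0.1, 829 at the unadjusted p-value and 82 with the adjustment over those 10676 genes, against 97 as reported. The unadjusted p-value gave 2 calls for the other ligands, 1 for the SHP2 branch, 6 for STAT3 response genes, 1 for acute-phase genes, 1 for IL6 promoter factors and 1 for stability factors. Of all tested genes it called 6.94%. CEBPD is counted both among the STAT3 response genes and among the IL6 promoter factors. For acute-phase genes a q-value of 0.1 also gave 1, SAA1. The members' median log2 ratio of 0.08 ranged from 0.05 with the GC trend removed to 0.12 without a level minimum or with a mean of at least 5 FPKM. With 1 FPKM added, 4 of the 10 single ratios moved by over 0.1 log2 units, as did 3 with 0.1 FPKM added and 4 with the GC trend removed. Centring on the median of tested genes moved none by that much. No paired analysis was possible because the table holds 1 value per group, and for that reason no sample could be left out. Depth is unknown from FPKM values, so no counting interval or detection limit is given for the low levels of IL6, IL6R and LIFR.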

Other observations

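Interleukin receptor genes beyond the IL-6 family were gathered by symbol, a choice made after values were seen. They are the rows whose symbol begins with IL, a number and R, without the chains of the IL-6 family and without receptor antagonists. Of these 37 rows 13 were tested and none was called, against 0.812% of all tested genes. A p-value of 0.05 or less stood beside 2 of the 13 in the authors' deposited table, against 6.94% of all tested genes. These were IL7R, the receptor of interleukin 7, at 0.628 FPKM in shETS1 and 1.21 FPKM in shLuciferase, and IL17RE, of the interleukin 17 receptor family, at 0.893 FPKM in shETS1 and 1.46 FPKM in shLuciferase. The authors' deposited table lists q-values of 0.316 for IL7R and 0.529 for IL17RE. The most abundant was IL13RA2, at 50.9 FPKM in shETS1 and 41.6 FPKM in shLuciferase. Over the 9 tested rows that averaged 1 FPKM or more the median log2 ratio was -0.04, against 0.02 over all tested genes at that level.

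Around the 10 genes on hg19, the nearest tested genes with a mean of at least 1 FPKM, up to 2 on each side, came to 36 genes that are no members. None of the 36 was called, and 3 had a p-value of 0.05 or less in the authors' deposited table, against 6.94% of all tested genes. GDNF, the glial cell line-derived neurotrophic factor, is the expressed gene before LIFR and OSMR on chromosome 5, and it was at 12.7 FPKM in shETS1 and 7.38 FPKM in shLuciferase, and the authors' deposited table lists a q-value of 0.0996 for it. DAB2, an endocytic adaptor beyond OSMR, was at 5.16 FPKM in shETS1 and 7.47 FPKM in shLuciferase, and ATP6V0A1, a proton pump subunit beyond STAT3, at 16.7 FPKM in shETS1 and 24.4 FPKM in shLuciferase.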
